A study of Mus musculus with 8 samples.

Results

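Open chromatin was examined at 37 mouse genes that encode the partners of histone deacetylase 1 (HDAC1) and the deacetylases outside its class. The genes were chosen by name and not by a cut on measured values, but with earlier results of these data known. All 37 were found among 21887 protein-coding genes of the RefSeq annotation of GRCm38.p6. They comprise 7 deacetylases, 11 subunits of the SIN3 complex, 2 histone chaperones shared between complexes, 9 subunits of NuRD, 4 of CoREST, 3 of NCoR/SMRT, and Mier1.

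Histone deacetylases remove acetyl groups from lysines of histone tails and other proteins. HDAC1 has no DNA-binding domain of its own and reaches chromatin as the catalytic subunit of the SIN3, NuRD, CoREST and MIER complexes, whose other subunits bind transcription factors, modified histones or methylated DNA. NCoR/SMRT complexes work in a parallel way around HDAC3, and class IIa deacetylases, which have little catalytic activity of their own, bind transcription factors such as those of the MEF2 family and shuttle between nucleus and cytoplasm.

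The data are ATAC-seq maps, in which the Tn5 transposase inserts adapters into accessible DNA, of conventional dendritic cells from mouse spleen. Cells of type 1 (cDC1, which present antigen from dead cells to CD8 T cells) were sorted as XCR1+CD11b- cells, and cells of type 2 (cDC2, which mainly prime CD4 T cells) as XCR1-CD11b+ cells, both from the Lin-CD11c+MHCII+CD64- fraction. The mice were HDAC1 floxed without Cre (called WT here) or HDAC1 floxed with Mx1-Cre (called KO), and each group of subset and genotype had 2 libraries. All mice, controls included, had received poly I:C 2 weeks before the sort. Poly I:C induces interferon, which drives the Mx1 promoter, so recombination is expected in many blood and other cell types and not in dendritic cells alone, and the control cells too had met an inflammatory agent. The age and sex of the mice are not given in the sources used here, and nothing states that the 2 libraries of a group came from separate animals. The p-values therefore measure only the spread between these libraries, which may be technical.

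Each deposited list held the summits of called peaks, a summit being the position of highest signal in a peak, with a score on a negative log10 p or q scale. The lists held 61737 to 96031 summits, and because longer lists reach weaker peaks, the 61737 best-scored summits of each library were kept and numbered by rank, with rank 1 the best. Each summit was given to the nearest protein-coding gene span within 50 kb. The measure is thus a number of called peaks per gene, not a number of reads, and a gene with fewer summits is not shown to be closed or less expressed. A site open in fewer cells and a site less open in each cell cannot be told apart in such bulk samples. Read depth is unknown, so no counting interval could be given. The kept summits reached down to a score of 1.31 in WT cDC2 library 2 and 7.21 in KO cDC1 library 2, so the weakest ranks rest on different evidence in different libraries. Between 54987 and 55460 kept summits per library received a gene. Of the markers used to check the sort, 5 of 7 tested cDC1 genes had fewer summits in cDC2 (Cd8a, Irf8, Cadm1, Plpp1 and Gcsam) and 2 of 7 cDC2 genes had more (Clec4a4 and Dtx1). None of 5 T cell, 5 monocyte and macrophage or 4 plasmacytoid dendritic cell genes passed, and of 3 B cell genes Ebf1 was lower in cDC2, with 8 to 11 summits in cDC1 libraries and 5 to 6 in cDC2. The part of other cell types in the differences between subsets was not tested. A list of summits without reads can show a deletion only where a peak lies in the deleted stretch, and the loss of Hdac1 was not checked.

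The promoters of 5 members show the range of what was found. They are the 250 bases before a RefSeq start, read 5′ to 3′ on the strand of the gene in GRCm38.p6. Capitals mark matches, on either strand, to GGGCGG (the GC box), to CCAAT, to the TATA motif TATAAA, or to AGGAAGT (a PU.1 motif). The promoter of Rbbp7 (chrX:162760122-162760371, plus strand) is shown because all 8 libraries had a summit in it and only KO libraries had a further one 770 bp before the start.
Rbbp7: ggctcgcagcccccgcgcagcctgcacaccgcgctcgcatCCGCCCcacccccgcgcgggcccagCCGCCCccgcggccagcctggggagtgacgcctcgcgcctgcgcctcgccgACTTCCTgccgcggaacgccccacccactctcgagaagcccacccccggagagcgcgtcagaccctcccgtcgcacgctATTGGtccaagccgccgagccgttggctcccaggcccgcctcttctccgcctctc
The window before the downstream start of Sin3a (chr9:57076126-57076375, plus strand, inside the gene span) lies next to a site found in cDC1 libraries only.
Sin3a: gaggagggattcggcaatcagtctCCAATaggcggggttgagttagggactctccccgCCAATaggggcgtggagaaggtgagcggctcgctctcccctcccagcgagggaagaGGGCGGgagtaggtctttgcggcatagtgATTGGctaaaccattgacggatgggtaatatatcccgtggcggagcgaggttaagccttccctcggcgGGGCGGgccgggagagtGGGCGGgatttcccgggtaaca
The promoter of Mbd3 (chr10:80399532-80399781, minus strand) held the only summit of its gene in each of the 8 libraries.
Mbd3: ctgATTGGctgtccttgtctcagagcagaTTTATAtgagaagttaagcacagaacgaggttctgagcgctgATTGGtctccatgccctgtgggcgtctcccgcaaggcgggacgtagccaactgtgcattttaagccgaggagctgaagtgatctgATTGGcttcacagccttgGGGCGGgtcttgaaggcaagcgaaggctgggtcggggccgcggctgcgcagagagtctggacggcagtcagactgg
The summit at the promoter of Hdac5 (chr11:102230173-102230422, minus strand) ranked better in all cDC1 libraries than in any cDC2 library. The same held at other members, among them Ncor1, Kdm1a and Hmg20b, and the reverse at Hdac4.
Hdac5: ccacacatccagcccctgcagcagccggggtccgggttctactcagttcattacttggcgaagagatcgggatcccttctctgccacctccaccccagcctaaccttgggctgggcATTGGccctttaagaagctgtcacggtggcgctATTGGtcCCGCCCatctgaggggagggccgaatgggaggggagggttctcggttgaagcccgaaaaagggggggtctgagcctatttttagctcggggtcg
The upstream promoter of Hdac9 (chr12:34917096-34917345, minus strand) had no summit in any library.
Hdac9: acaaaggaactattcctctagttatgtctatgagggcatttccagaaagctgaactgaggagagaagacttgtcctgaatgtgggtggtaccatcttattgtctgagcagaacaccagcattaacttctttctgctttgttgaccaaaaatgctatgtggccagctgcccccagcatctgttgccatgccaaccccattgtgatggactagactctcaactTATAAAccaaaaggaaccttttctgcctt

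RefSeq promoters were found for 30 of the 37 genes, in 46 windows of 300 bases that run from 250 before to 50 after a start. Windows of 1 gene can overlap. GGGCGG was present in 36 of the 46 windows (78.3%), against 46.2% of 21263 windows of protein-coding genes. CCAAT was present in 26 windows (56.5%, against 38.2%). The other motifs searched on both strands were CCGGAAG (ETS, 10.9% against 11.6%), GCATGCG (NRF1, 6.52% against 4.44%), ATGGCGG (YY1, 4.35% against 5.25%), TATAAA (15.2% against 12.6%), CACGTG (the E box, 4.35% against 7.84%), TGANTCA (AP-1, 6.52% against 6.99%) and AGGAAGT (4.35% against 9.07%). The median GC content was 63.5% in the members' windows and 56.3% in all windows. These matches describe the letters and do not show binding.

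Start sites were open in nearly all members with a RefSeq start and in both genotypes. Summits of any library within 250 bp of each other were chained into sites. Of the 30 members with a RefSeq start, 28 (93.3%) had a site found in all 8 libraries within 1 kb of a start. This held for 7745 of 11265 tested genes with a start (68.8%). A gene with several starts counted if any of them had such a site, and the number of starts per gene was not matched. The summit at the start of Hdac4, a class IIa deacetylase, was among the best of every list, at ranks 818, 327, 310 and 659 in cDC1 and 133, 144, 144 and 281 in cDC2. The start sites of Gatad2a (a bridging subunit of NuRD), Hmg20b (an HMG-box subunit of CoREST), Sap30 (a SIN3 subunit) and Mbd3 (a NuRD subunit of the methyl-CpG-binding family) had median ranks within the best 1.21%, 1.38%, 1.51% and 1.53% of a list. The 2 exceptions were Hdac9 and Tbl1xr1. Hdac9 had no summit within 1 kb of either of its starts, in the kept or in the complete lists, although it had 25 to 35 summits elsewhere in its span of 869.5 kb and its flanks. Tbl1xr1, a WD40 subunit of NCoR/SMRT, had a site at -484 bp from its start in 7 libraries, while KO cDC2 library 2 had its summit 95 bp after the start instead. At the start of Arid4b, a SIN3 subunit with a chromodomain, all 8 libraries had a summit within 1 kb. In 5 of them a summit there was given to Arid4b. In WT cDC1 library 2, KO cDC1 library 1 and KO cDC2 library 1 the summit lay nearer to the end of the neighbouring gene Ggps1. It does not enter the Arid4b counts of those libraries.

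The number of summits ranged from 1 to 35 per member and library. The median over the 37 genes of the mean over libraries was 3.625, against 2.5 for the 14068 tested genes, those that averaged 1 summit per library or more. All 37 members passed that limit. Neither median allows for gene length. A long gene collects more summits, and a summit can lie up to 50 kb outside the span it was given to, so numbers were compared between libraries and not between genes. The map of summits per gene and library shows every value.

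**Figure D1:**
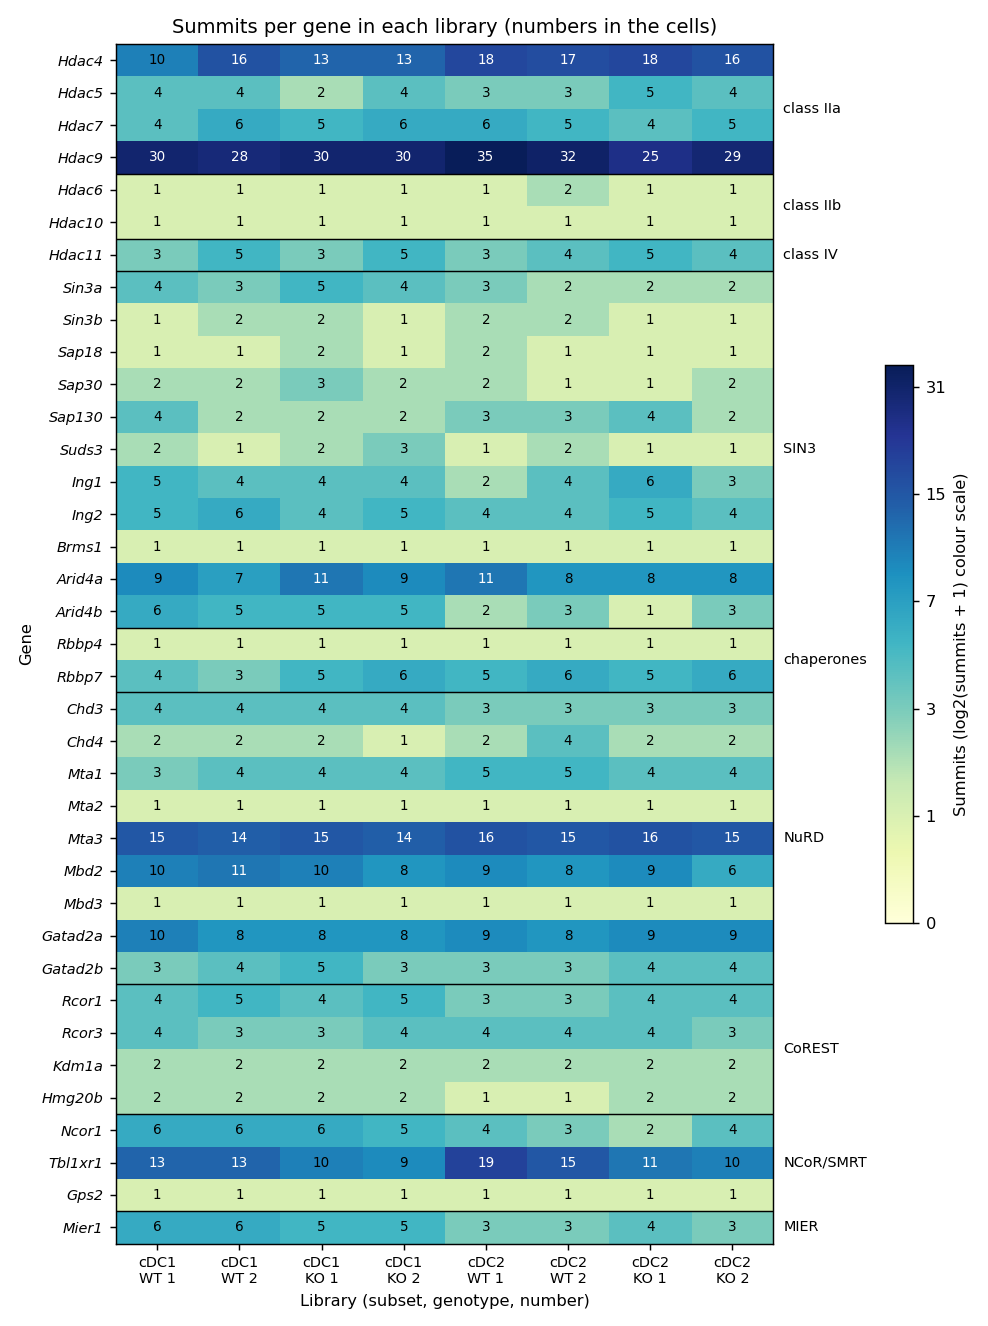
Number of kept summits given to each of the 37 genes (vertical axis, grouped by complex) in each of the 8 libraries (horizontal axis), with the number in the cell and a colour scale in log2(summits + 1). Hdac9, Hdac4, Mta3 and Tbl1xr1 carry the most summits, with no allowance for length, 7 genes have the same number in all 8 libraries, and Sin3a, Arid4b, Ncor1 and Mier1 are paler in cDC2.

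Of the 37 members, 7 (18.9%) had the same number of summits in all 8 libraries, as did 1627 of 14068 tested genes (11.6%). Hdac10, the class IIb polyamine deacetylase, Rbbp4, the histone chaperone shared by SIN3 and NuRD, Brms1 of SIN3, Mta2 and Mbd3 of NuRD, and Gps2 of NCoR/SMRT each had 1 summit in every library. Kdm1a, the histone H3 lysine 4 demethylase of CoREST, had 2 in every library. Summed over all members, the 4 cDC1 libraries had 185, 186, 185 and 181 summits and the 4 cDC2 libraries 192, 182, 175 and 169. The sums of WT libraries lay between 182 and 192 and those of KO libraries between 169 and 185, so both pairs of groups overlapped.

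The first comparison was between the subsets, cDC2 against cDC1 over both genotypes. In cDC2, 4 members had fewer summits, namely Arid4b and Sin3a of SIN3, Ncor1 of NCoR/SMRT and Mier1, and none had more. Differences are given in log2(summits + 1), with the standard error (SE) from limma and a p-value adjusted by Benjamini-Hochberg over the 14068 genes, called at an adjusted p under 0.05. A share of 10.8% of the members was called, against 10.4% of all tested genes in either direction. In 1 direction, 5.66% of the tested genes were lower in cDC2 and 4.7% higher. The share of members called was near the background, and the median difference was 0 over the members and over all tested genes. At an unadjusted p under 0.05 there were 5 members (13.5%), the other being Hdac4, against 3452 of all tested genes (24.5%). Which members were called depended on the settings of the fit, and members called under other settings are given with their complex. All cDC2 libraries lay below all cDC1 libraries in 4 members (Arid4b, Chd3, Ncor1 and Mier1), against a background of 5.79%. None had all cDC2 libraries above, against a background of 4.75%.

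Arid4b (chromosome 13, 14063609 to 14199603), whose protein ties SIN3 to chromatin and to the retinoblastoma protein, had the lowest p among the members. It had 6 and 5 summits in the WT cDC1 libraries, 5 and 5 in those of KO cDC1, 2 and 3 in those of WT cDC2, and 1 and 3 in those of KO cDC2. Every cDC1 library lay above every cDC2 library, in both genotypes. The means were 5.25 ± 0.5 in cDC1 and 2.25 ± 0.957 in cDC2 (SD, n = 4), a log2 difference of -0.99 (SE 0.22, limma adjusted p = 0.00956). In the 8 fits without 1 library the log2 difference lay between -1.24 and -0.74. In the complete deposited lists the counts were 6, 8, 5 and 8 in cDC1 and 4, 3, 2 and 6 in cDC2, and the difference of -0.75 did not pass (limma adjusted p = 0.0713). Nor did it pass without the variance of rounding to whole summits, which was added to each gene's variance in the fit reported (limma adjusted p = 0.104 at the same difference).

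The difference in Arid4b lay in 4 sites that were present in all 4 cDC1 libraries and in no cDC2 library. They were at chr13:14136398-14136500, chr13:14157910-14157969, chr13:14164286-14164307 and chr13:14172390-14172418, inside the gene and between 72640 and 108620 bp from its start. Ranks at the last of these were 22263, 13894, 17410 and 23662, so it was far from the weak end of the lists. In the complete lists 1 cDC2 library had a summit at each of the last 2 sites, and no cDC2 library had any at the first 2. The annotation used here gives spans without exons, so exonic and intronic positions were not separated.

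Mier1 (chromosome 4, 103114324 to 103165754) encodes a corepressor that recruits HDAC1 and HDAC2 through an ELM2-SANT module. It had 6 and 6 summits in the WT cDC1 libraries, 5 and 5 in those of KO cDC1, 3 and 3 in those of WT cDC2, and 4 and 3 in those of KO cDC2. The subsets did not overlap. Means of 5.5 ± 0.577 and 3.25 ± 0.5 (SD, n = 4) gave a log2 difference of -0.62 (SE 0.174, limma adjusted p = 0.0369). The sites at the start and near the 5′ end of the gene were open in all 8 libraries, and chr4:103123306-103123357 and chr4:103162718-103162759 only in the 4 cDC1 libraries, also in the complete lists. The call was lost in 7 of the 8 fits without 1 library, all but that without KO cDC2 library 1, at differences of -0.62 in 6 of them and -0.54 without KO cDC2 library 2 (limma adjusted p between 0.0558 and 0.13). Among the 30868 best summits the difference was -0.29 (limma adjusted p = 0.453).

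Ncor1 (chromosome 11, 62315663 to 62457414) encodes the large scaffold through which nuclear receptors recruit HDAC3. It had 6 and 6 summits in the WT cDC1 libraries, 6 and 5 in those of KO cDC1, 4 and 3 in those of WT cDC2, and 2 and 4 in those of KO cDC2. All cDC1 libraries lay above all cDC2 libraries, at means of 5.75 ± 0.5 and 3.25 ± 0.957 (SD, n = 4). The log2 difference was -0.69 (SE 0.199, limma adjusted p = 0.039). No site of Ncor1 was open in 1 whole subset and absent from the other. The start site and a site 85153 bp into the gene were open in all 8 libraries, while chr11:62404098-62404182 had a summit in 4 cDC1 libraries and 1 cDC2 library and chr11:62343151-62343188 in 3 and 0. Without KO cDC1 library 1, WT cDC2 library 2 or KO cDC2 library 1 the call was lost (-0.64, -0.61 and -0.51, limma adjusted p = 0.0726, 0.0662 and 0.161). It was also lost without the rounding variance (limma adjusted p = 0.124).

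Sin3a (chromosome 9, 57071991 to 57128368), the scaffold of the SIN3 complex, had 4 and 3 summits in the WT cDC1 libraries, 5 and 4 in those of KO cDC1, 3 and 2 in those of WT cDC2, and 2 and 2 in those of KO cDC2. The subsets met at 3 summits, in WT cDC1 library 2 and WT cDC2 library 1. Means of 4 ± 0.816 and 2.25 ± 0.5 (SD, n = 4) gave a log2 difference of -0.62 (SE 0.187, limma adjusted p = 0.0464), the weakest of the 4 calls. The call was lost in 11 of 19 alternatives, among them the fits without WT cDC1 library 1 (-0.54), KO cDC1 library 1 (-0.55), WT cDC2 library 2 (-0.51), or either KO cDC2 library (-0.62 in both). At the downstream start, whose upstream window is printed above, a summit was found in all 8 libraries, at ranks between 5525 and 8957. A site 524 bp after that start (chr9:57076794-57076961) had summits in the 4 cDC1 libraries alone, at ranks 19269, 17503, 11134 and 20847, and no cDC2 library had a summit within 250 bp of it even in the complete lists. The upstream RefSeq start of Sin3a had a summit within 1 kb in 1 library only, KO cDC1 library 1.

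**Figure D2:**
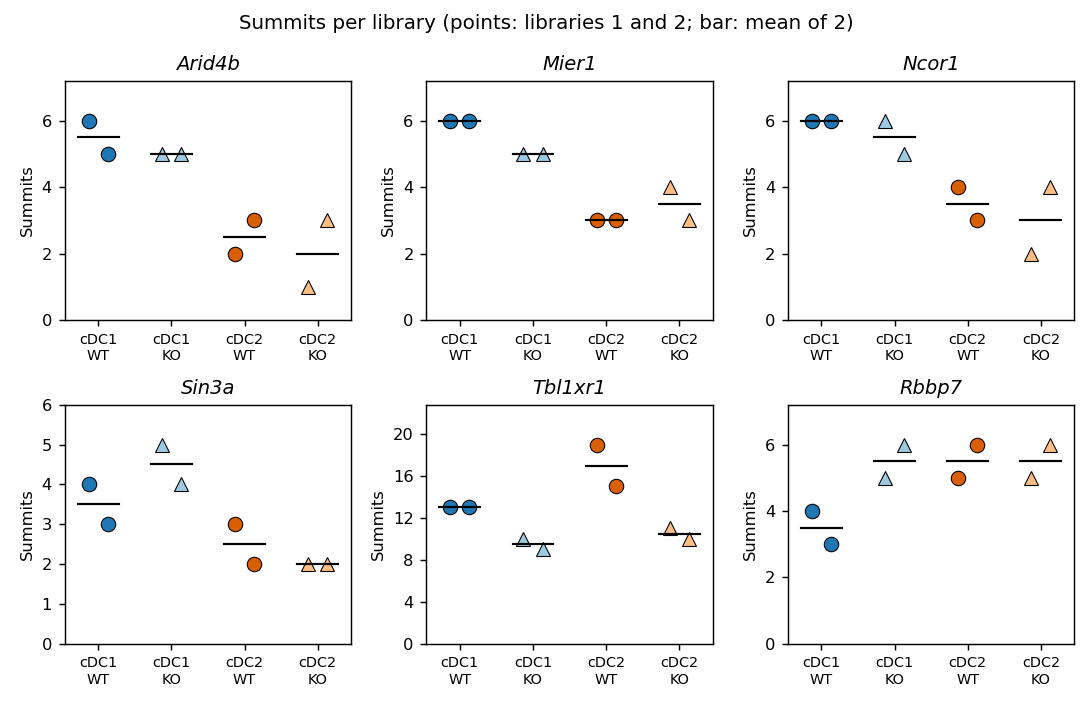
Kept summits per library (vertical axis) in the 4 groups of subset and genotype (horizontal axis) for the 4 members that differed between the subsets and for Tbl1xr1 and Rbbp7. Points are the 2 libraries of a group and bars their mean, circles are WT and triangles KO. Arid4b, Mier1 and Ncor1 lie higher in every cDC1 library than in any cDC2 library, Sin3a overlaps at 3 summits, and Tbl1xr1 lies between 9 and 11 in KO and between 13 and 19 in WT.

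The other 9 SIN3 genes did not pass between the subsets in the fit reported. Sin3b, the paralogue of Sin3a, had 1 to 2 summits per library and the same mean of 1.5 in both subsets. Arid4a, the paralogue of Arid4b, had 7 to 11 summits per library, with means of 9 ± 1.63 in cDC1 and 8.75 ± 1.5 in cDC2 (SD, n = 4). Sap18 and Sap30 had 1 to 2 and 1 to 3, Sap130 2 to 4, and Suds3, a dimerizing subunit, 1 to 3. In the complete lists Suds3 and Sap30 were called lower in cDC2 (-0.90 and -0.71, limma adjusted p = 0.0234 and 0.0468). Ing1 and Ing2, PHD-finger readers of methylated histone H3, had 2 to 6 and 4 to 6. A site 701 bp outside the Ing2 span (chr8:47666458-47666507) was open in the 4 cDC1 libraries and no cDC2 library, without a called difference in the gene. The summed SIN3 genes came to 38 ± 3.16 summits per cDC1 library and 30.8 ± 2.06 per cDC2 library (SD, n = 4), a sum that holds Arid4b and Sin3a.

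No NuRD gene was called between the subsets in the fit reported. Chd3, a remodelling ATPase of NuRD, had 4 summits in each of the 4 cDC1 libraries and 3 in each of the 4 cDC2 libraries. The groups did not overlap, yet the log2 difference of -0.32 (SE 0.171, limma adjusted p = 0.281) did not pass. This rests on the added rounding variance, since without it Chd3, which had no spread within either subset, was called (SE 0.00623, limma adjusted p = 1.29e-05). The extra summit was at chr11:69344499-69344765, inside the gene. Chd4, the other main ATPase, had 1 to 4 summits, with the 4 in WT cDC2 library 2. Mta1, a scaffold subunit, had 3 to 5 summits, and its relative Mta3 14 to 16. Mbd2, which binds methylated CpG, had 6 to 11, Gatad2a 8 to 10 and Gatad2b 3 to 5. Among the 30868 best summits Mta1 was called higher in cDC2 (0.58) and Mbd2 lower (-0.59, limma adjusted p = 0.0412 for both). The summed NuRD genes came to 48 ± 2.71 summits per cDC1 library and 47.8 ± 1.89 per cDC2 library (SD, n = 4).

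In CoREST, Rcor1 and Rcor3, the scaffolds that join HDAC1 to Kdm1a, had 3 to 5 and 3 to 4 summits. Hmg20b had 2 summits in every library other than the 2 WT cDC2 libraries, which had 1. It was not called between the subsets (-0.29, limma adjusted p = 0.355), but was called lower in cDC2 without the rounding variance (limma adjusted p = 1.29e-05) and with spans extended by 5 kb (-0.66, limma adjusted p = 0.0351). Its start site ranked 551, 469, 739 and 671 in cDC1 and 968, 1870, 1026 and 1023 in cDC2. Rcor1 had a site (chr12:111048369-111048422, 9026 bp after the start) in the 4 cDC1 libraries only. Of the shared chaperones, Rbbp7 had 3 to 6 summits and a site 7738 bp before its span (chrX:162752582-162752705) in cDC1 libraries only.

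Among the deacetylases no gene was called in the fit reported. Hdac4 had 10, 16, 13 and 13 summits in cDC1 and 18, 17, 18 and 16 in cDC2. The subsets met at 16, and the log2 difference of 0.40 (SE 0.187) did not pass (limma adjusted p = 0.203). With trend and robust variance the same difference was called higher in cDC2 (SE 0.115, limma adjusted p = 0.00618), and in the complete lists it was 0.04 (limma adjusted p = 1). A cDC2-only site lay inside the gene (chr1:92080229-92080428), with a summit of 1 cDC1 library in the complete lists. Hdac9 had 30, 28, 30 and 30 summits in cDC1 and 35, 32, 25 and 29 in cDC2, a log2 difference of 0.02. Equal numbers did not mean the same places, as 5 sites of Hdac9 were found in the 4 cDC1 libraries only. The best ranked of them was chr12:34787583-34787601, at ranks 16373 to 22895, where the complete lists add 1 cDC2 library, and the next was chr12:34703224-34703279, at ranks 20300 to 40413. Hdac5 had 2 to 5 summits and Hdac7, the class IIa enzyme prominent in lymphocytes and endothelium, 4 to 6. At its start Hdac5 had a summit ranked 6573, 4847, 3961 and 4654 in cDC1 and 11433, 16909, 16025 and 11564 in cDC2. The subsets did not overlap there, but this was not particular to Hdac5. Ranks were also apart at the starts of Ncor1, Kdm1a and Hmg20b (better in cDC1) and of Hdac4 (better in cDC2), among others. The share of all genes with such a separation was not counted. Ranks are positions within separate lists and were not tested. Hdac6, the class IIb tubulin deacetylase, had 1 summit in each library except WT cDC2 library 2, which had 2. Hdac11, the class IV enzyme, had 3 to 5.

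**Figure D3:**
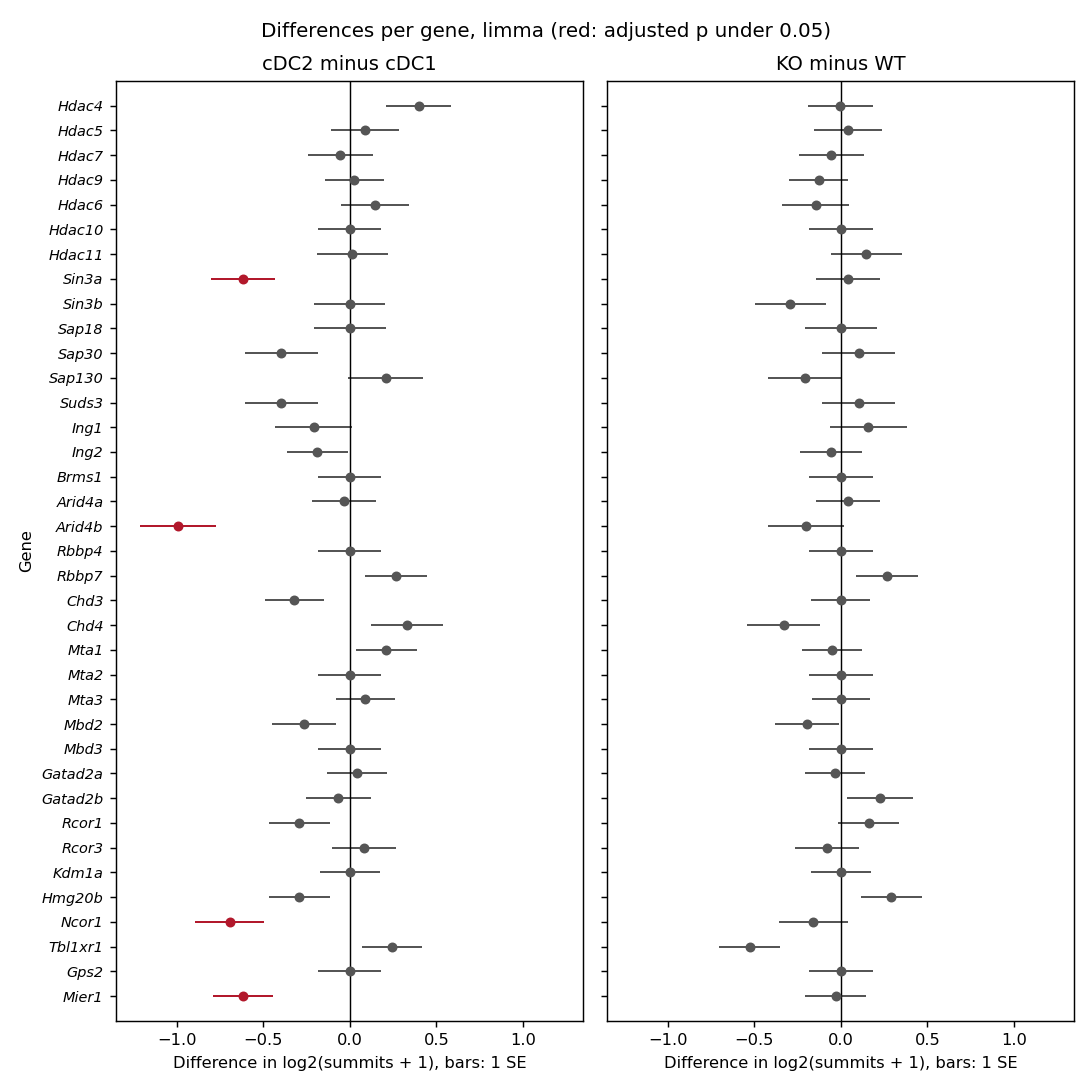
Difference in log2(summits + 1) of each of the 37 genes, cDC2 minus cDC1 on the left and KO minus WT on the right, over the other factor. Points are limma estimates, bars 1 SE, and red an adjusted p under 0.05. Sin3a, Arid4b, Ncor1 and Mier1 are red on the left, and no gene is red on the right.

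The 37 genes had 326 sites. Of these, 88 (27%) were found in all 8 libraries and 75 (23%) in 1 library, against 27.4% and 23.9% over all genes. Sites in 1 library numbered 124 (33.1%, against 31.7%) when summits were chained within 100 bp instead. Sites in all 4 cDC1 libraries and no cDC2 library numbered 17 (5.21%), against 4099 of 99141 sites of all genes (4.13%). In the opposite direction there were 4 (1.23%, against 2.32%). These lay in Mta3 (chr17:83772904-83772914), Hdac4, Gatad2a (chr8:69937611-69937777) and Mta1 (chr12:113124924-113125033), all inside the genes. The 17 cDC1-only sites were spread over 9 genes, with 5 in Hdac9, 4 in Arid4b, 2 in Mier1 and 1 each in Sin3a, Ing2, Rcor1, Rbbp7, Mta3 and Chd3. By mean rank the Sin3a site was the best of them (17188), followed by that of Ing2 (19150). Arid4b was the only member with no site in all 8 libraries assigned to it.

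**Figure D4:**
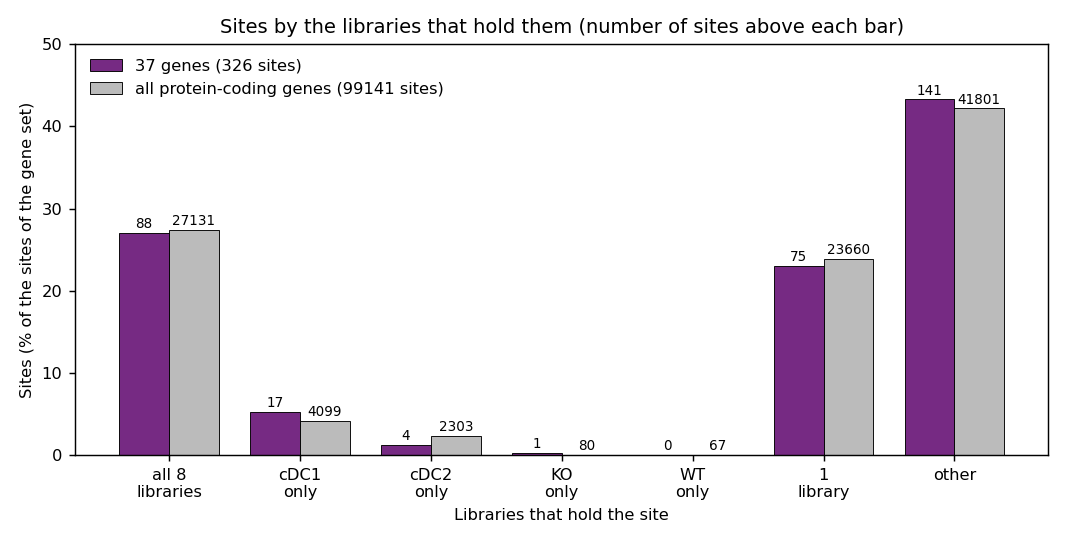
Share of sites (vertical axis, % of the sites of the gene set) by the libraries that hold them (horizontal axis), for the 37 genes (326 sites) and all protein-coding genes (99141 sites), with the number of sites above each bar. The profiles are close, with 27% and 27.4% of sites in all 8 libraries, and sites of 1 genotype alone are rare in both.

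The second comparison asked whether the members' chromatin differed between KO and WT. No member was called in cDC1, in cDC2 or over both subsets, nor did any differ between the subsets in its KO minus WT difference. Few genes were called at all, 0.0498% of tested genes in cDC1 (7), 0.0782% in cDC2 (11), 0.0426% over both subsets (6) and 0% for the difference between the subsets, so the count of members says little. These counts of all genes were unstable, since leaving out any 1 of the 8 libraries gave 38 to 90 in cDC1, 25 to 167 in cDC2, 32 to 120 over both and 1 to 38 for the difference between the subsets, with 0 members called in each of these fits. At an unadjusted p under 0.05 there were 0 members in cDC1 (742 of all tested genes, 5.27%), 2 in cDC2 (5.41%, against 793 genes, 5.64%), 1 over both (2.7%, against 877 genes, 6.23%) and 0 for the difference between the subsets (537 genes, 3.82%). Members were called for KO minus WT in 2 alternative fits, Hmg20b without the rounding variance and Tbl1xr1 with trend and robust variance. The median KO minus WT difference was 0 over the members in each of these contrasts.

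Tbl1xr1 (chromosome 3, 22076253 to 22216594), which helps exchange corepressors for coactivators on NCoR/SMRT, came nearest to a call. It had 13 and 13 summits in the WT cDC1 libraries, 10 and 9 in those of KO cDC1, 19 and 15 in those of WT cDC2, and 11 and 10 in those of KO cDC2. All 4 KO libraries lay below all 4 WT libraries, the only member of which this held (1 of 37, 2.7%, against a background of 0.284%). That background is not matched for the number of summits. It holds many genes with few summits, where ties prevent such a separation. No member had all KO libraries above all WT libraries, against a background of 0.348%. Means were 15 ± 2.83 in WT and 10 ± 0.816 in KO (SD, n = 4). The log2 difference was -0.53 over both subsets (SE 0.174, limma adjusted p = 0.488) and -0.64 in cDC2 (SE 0.246, limma adjusted p = 0.841), and did not pass. In the complete lists the WT libraries had 18 and 20 summits (cDC1) and 21 and 15 (cDC2), the KO libraries 18 and 21 (cDC1) and 15 and 14 (cDC2), and the genotypes overlapped. Among the 30868 best summits KO cDC2 had 3 and 4 and WT cDC2 3 and 3. Of 35 sites, 17 had a summit in 1 library and 2 in all 8.

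Rbbp7 (chromosome X, 162760372 to 162779090), a WD40 histone chaperone of SIN3 and NuRD, had the lowest p in cDC1. It had 4 and 3 summits in the WT cDC1 libraries, 5 and 6 in those of KO cDC1, 5 and 6 in those of WT cDC2, and 5 and 6 in those of KO cDC2. KO lay above WT in cDC1 and not in cDC2. The log2 difference in cDC1 was 0.54 (SE 0.255, limma adjusted p = 0.955) and did not pass. The difference in this effect between the subsets was -0.54 (SE 0.361, limma adjusted p = 1).

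Rbbp7 also held the only site of the 37 genes that was present in all 4 libraries of 1 genotype and none of the other. It lay at chrX:162759563-162759630, 770 bp before the start, with ranks 16516 and 15276 in KO cDC1 and 15587 and 9087 in KO cDC2. None of the 4 WT libraries had a summit within 250 bp of it, even in the complete lists. Every library had a summit at the start itself, at ranks between 3419 and 8927, in the window printed above. Among all 94 sites found in KO libraries only, 80 of them with a gene, this one had the best median rank (15431.5, against a median of 46182). Over all genes such sites were 80 of 99141 (0.0807%) and sites in WT libraries only 67. The site was picked out after its values were seen, and no test was made of it.

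**Figure D5:**
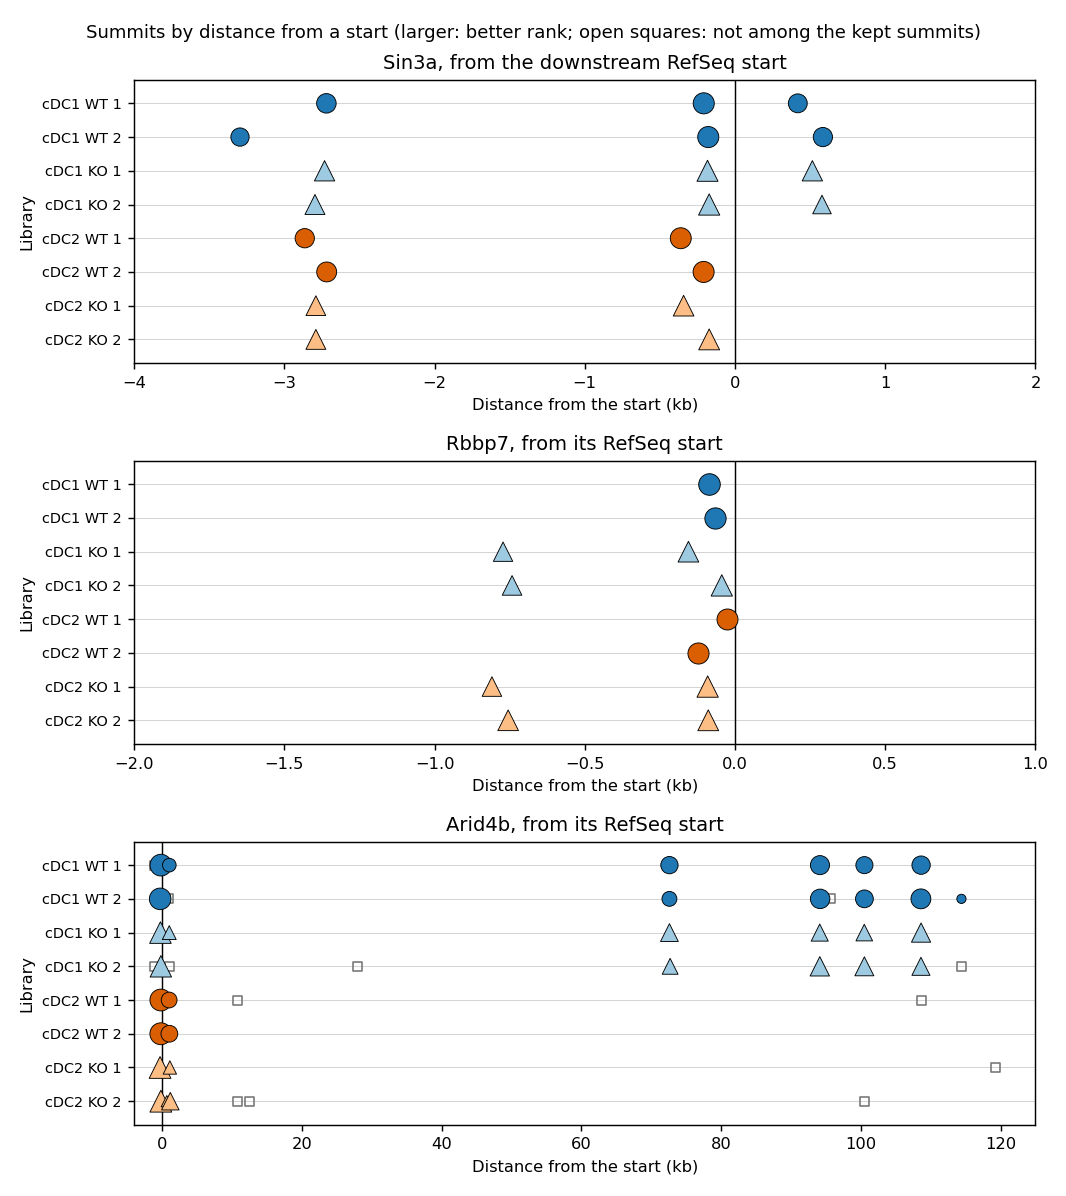
Summits of each library (vertical axis) by distance in kb from a RefSeq start (horizontal axis) of Sin3a, Rbbp7 and Arid4b, with circles for WT, triangles for KO, larger symbols for better ranks and open squares for summits outside the 61737 kept. Among the kept summits, the 4 cDC1 libraries alone have the Sin3a summit about 524 bp after the downstream start and the 4 Arid4b sites between 72640 and 108620 bp. Open squares at these Arid4b sites are summits of WT cDC2 library 1 (108739 bp) and KO cDC2 library 2 (100593 bp). The 4 KO libraries alone have the Rbbp7 summit about 770 bp before the start.

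The remaining members of NCoR/SMRT and the deacetylases also stayed below the threshold between genotypes. Ncor1 had means of 4.75 ± 1.5 in WT and 4.25 ± 1.71 in KO (SD, n = 4). The summed NCoR/SMRT genes had 20.8 ± 2.22 summits in WT and 15.2 ± 1.26 in KO (SD, n = 4), a sum that mostly follows Tbl1xr1. Hmg20b, with 1 summit in both WT cDC2 libraries and 2 in both KO cDC2 libraries, had a log2 difference of 0.58 there (SE 0.249, limma adjusted p = 0.841). Hdac5 had the lowest p for a difference between the subsets in the KO effect. It had 4 and 4 summits in the WT cDC1 libraries, 2 and 4 in those of KO cDC1, 3 and 3 in those of WT cDC2, and 5 and 4 in those of KO cDC2. The difference was 0.82 (SE 0.394, limma adjusted p = 1), and did not pass. The low value of 2 was in KO cDC1 library 1 alone.

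Other genes of the same pathways were counted too, where 10.4% of all tested genes were called between the subsets. With so few genes per list, no difference from that share was tested. Of the class I deacetylases, Hdac1 had 1 to 2 summits per library, Hdac2 2 to 4, Hdac3 1 to 2 and Hdac8 2 to 7, and 0 of 4 were called in any contrast. None of 5 tested sirtuins, the NAD-dependent deacetylases, was called. Of 24 tested further subunits of the complexes 1 was lower and 1 higher in cDC2. Ogt, the O-GlcNAc transferase that binds SIN3A, had 2, 2, 3 and 2 summits in cDC1 and 1 in each cDC2 library, a log2 difference of -0.69 (SE 0.184, limma adjusted p = 0.0268). Brms1l, a SIN3 subunit, had 3, 1, 1 and 2 in cDC1 and 4, 4, 3 and 3 in cDC2, a difference of 0.76 (SE 0.226, limma adjusted p = 0.0446). Of 10 acetyltransferases, the opposing enzymes, Hat1 was lower in cDC2, with 4, 4, 2 and 3 summits in cDC1 and 1 in each cDC2 library (-1.06, SE 0.182, limma adjusted p = 0.00168). No gene of these lists was called between KO and WT.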

How the data were processed

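Summit lists of 8 ATAC-seq libraries were used, 2 for each of 4 groups named in the sample titles. The tools named in the submitters' processing notes are MACS2, Bowtie2, SAMtools and MultiQC, and the genome is GRCm38 (mm10). Versions, filters and calling settings are not given in the sources used here. The deposited score of a summit is a −log10 p-value or q-value of its peak in its own library, and it was used for ranks within the library alone.

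From these lists the 61737 best summits per library were given to the nearest protein-coding gene span within 50 kb. A summit in overlapping spans went to the span with the nearest end (at most 1.07% of a list). Summits per gene were compared as log2(summits + 1) with limma 3.58.1 in R 4.3.3, with a mean for each of the 4 groups, in the 14068 genes that averaged 1 summit per library or more. The variance of rounding to a whole number (0.0833 squared summits) was added to each gene's variance before moderation. Several calls between the subsets rest on this. Without it Chd3 and Hmg20b, whose libraries hardly vary, were called. Arid4b, Ncor1 and Sin3a were then not called (limma adjusted p = 0.104, 0.124 and 0.074). The script was also run on simulated data, and no call reported here rests on that run. Since 1 is added before the logarithm, differences understate the change of genes with few summits. Sites chain summits within 250 bp. Promoter sequences are those of RefSeq for GRCm38.p6.

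The members, lists, promoter motifs and variance treatment were chosen with earlier results of these data known, so no pattern here is independent of them. All 37 members are named. Differences with SE and adjusted p are printed for members called, and for the member with the lowest p where none was. Sites found in 1 subset or genotype only were named by coordinates up to 10 per kind, by mean rank. Other members and sites with values beside these were chosen after their values were seen.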

Additional observations from a re-analysis of the deposited data

Results flagged for a closer look

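Within each subset and each genotype the 4 libraries of a member were searched for 1 value far from the other 3, by Dixon's test at the 95% critical value. Of 70 such groups with a range of at least 2 summits, 8 held such a value, and in all 8 the other 3 libraries were equal. The critical value is meant for continuous values, and each library enters 2 groups. No rate expected by chance can therefore be given for these whole numbers. WT cDC1 library 1 stood high in Sap130, with 4 summits against 2 in each other cDC1 library, and in Gatad2a, with 10 against 8 in each other. WT cDC1 library 2 stood low in Hdac9, with 28 against 30 in each other cDC1 library. KO cDC1 library 1 stood low in Hdac5, with 2 against 4. WT cDC2 library 1 stood high in Arid4a, with 11 against 8 in each other cDC2 library. WT cDC2 library 2 stood high in Chd4, with 4 against 2, both among the cDC2 libraries and among the WT libraries. KO cDC2 library 1 stood high in Sap130, with 4 against 2 in each other KO library. None of these genes was called in any contrast. No member had KO above WT in all libraries of 1 subset and below in all of the other.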

How the results depend on the processing

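Between the subsets, 4 members were called, and 1 with a pseudocount of 0.5 or without the limit on low genes, where more genes are tested (Arid4b in both). The genes behind the count changed too. They were Ncor1, Mier1, Suds3 and Sap30 with all deposited summits, Arid4b, Mbd2 and Mta1 (higher) with the 30868 best, Arid4b, Ncor1, Mier1 and Hmg20b with the extended span, Mier1, Hmg20b and Chd3 without the rounding variance, and the 4 with Hdac4 (higher) with trend and robust variance. Without 1 library there were 1 to 3, with Arid4b called each time. All genes called went from 1457 to 886 without the limit on low genes and to 2256 with trend and robust variance. Among the 19 alternatives the call was lost in 2 for Arid4b, 7 for Ncor1, 10 for Mier1 and 11 for Sin3a, with no change of direction. For KO minus WT no member was called in cDC1 under any alternative. Hmg20b was the 1 member called without the rounding variance, in cDC2, over both subsets and for the difference between the subsets. Tbl1xr1 was the 1 member called with trend and robust variance, in cDC2 (adjusted p = 0.0489) and over both subsets (0.00521). With the 30868 best summits the Tbl1xr1 difference in cDC2 turned to 0.161 and that of Hdac5 between the subsets to -0.085. Counts of all genes called for KO minus WT moved most. In cDC1 (7) there were 18 with all deposited summits, 63 with the 30868 best, 12 with the span extended by 5 kb, 0 without the limit on low genes, 0 for genes averaging 3 summits or more, 176 without the rounding variance, 124 with trend and robust variance, 98 with only the groups compared, and 38 to 90 without 1 library. In cDC2 (11) the same settings, after all deposited summits, gave 72, 20, 0, 2, 207, 89, 58, and 25 to 167, and a pseudocount of 0.5 gave 7. Over both subsets (6) there were 56 with all deposited summits, 79 with the 30868 best, 15 within 10 kb, 26 with the extended span, 0 with a pseudocount of 0.5, 0 without the limit on low genes, 1 for genes averaging 3 or more, 328 without the rounding variance, 160 with trend and robust variance, and 32 to 120 without 1 library. For the difference between the subsets (0) there were 35 with the 30868 best, 299 without the rounding variance, 38 with trend and robust variance, and 1 to 38 without 1 library. With the library number as a replicate block the counts were 113 in cDC1, 66 in cDC2, 153 over both and 38 for the difference between the subsets (also 38 with the number within genotype), and the same 4 members were called between the subsets in both blocked fits. The differences between libraries 2 and 1 of a group correlated across 14068 genes at 0.00173 to 0.0362 in 6 pairs of groups. With small whole numbers of summits, such values cannot show whether libraries of 1 number shared an animal or a day. The limma prior degrees of freedom were 11.8 in the fit reported, 0.492 without the rounding variance and 40.6 to 136 without 1 library. They were infinite with the block, with trend and robust variance and with the 30868 best summits. Beyond that the cause was not tested. Member sites in 1 library went from 75 to 124 with chaining at 100 bp (61 at 500 bp), a setting applied to this kind after seeing the data. Those in all 8 libraries, in 1 subset only and in 1 genotype only stayed within 1.5 times at both widths. Depth is unknown, a single summit is 1 of few per gene, and 2 libraries per group limit every genotype comparison.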
